A study of Homo sapiens with 6 samples.

Results

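The 10 BCL2 family apoptosis regulators BCL2, BCL2L1, MCL1, BAX, BAK1, BBC3, PMAIP1, BID, BCL2L11 and BIK were chosen by gene name from the 32985 genes of the table, and each had 1 row. RNA-seq was performed on 8505C cells, an established line from anaplastic thyroid cancer (ATC), 24 h after transfection. In 3 libraries the cells had received control siRNA (siCtrl, genotype labelled WT) and in 3 a NUF2 siRNA (siNUF2, labelled NUF2 knockdown). The line, the medium and the time were the same in both groups, and the methods give 1 siRNA sequence for NUF2 and no rescue. The study examined apoptosis of ATC cells after NUF2 knockdown, at a later time after transfection than the 24 h of these libraries. The question here is which genes of the mitochondrial apoptosis switch differed in mRNA level at 24 h.

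The BCL2 family sets the threshold of the mitochondrial pathway of apoptosis. Pro-survival members (BCL2, BCL-XL from BCL2L1, MCL1) hold the effectors BAX and BAK1 in check, and the effectors, once free, open pores in the outer mitochondrial membrane so that cytochrome c leaves. BH3-only members (PUMA from BBC3, NOXA from PMAIP1, BID, BIM from BCL2L11, BIK) bind pro-survival members or activate the effectors directly. MCL1 is known as a short-lived protein that keeps cells alive during mitotic arrest, and NOXA binds MCL1 preferentially. Much of this control acts on the proteins, which RNA-seq does not measure. The values are per gene, so splice forms with opposite action, known for BCL2L1 and MCL1, were not separated.

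The NUF2 siRNA and the bases that could pair with its antisense seed (positions 2 to 8) are shown first, because some members carry the same bases. The NUF2 target is coding sequence, in exon 6 of 14, at chr1:163336814-163336834 (GRCh38, plus strand). Capitals mark TATGGAA, the complement of the seed, or its 6-base part ATGGAA.
NUF2 target: gccgtgaaacgtaTATGGAAt
PMAIP1 site: tactagaaacTATGGAAaactggaaaa
BCL2 upstream site: gacccctgtcTATGGAAttacatgtaa
BCL2 downstream site: aagtgatgaaTATGGAAtatccaatcc
BCL2L1 site: ggctggcaggTATGGAAgggtttgtgg
MCL1 upstream 6-base site: aggttgatgaATGGAAattctttcac
MCL1 downstream 6-base site: tttcagctgaATGGAActcattagct

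The PMAIP1 site is in the 3′ UTR in exon 2 of 2 at chr18:59903392-59903418 (plus strand). The BCL2 sites are in the 3′ UTR in exon 2 of 2 at chr18:63127145-63127171 and chr18:63126099-63126125 (minus strand), and the BCL2L1 site is in the 3′ UTR in exon 2 of 2 at chr20:31665673-31665699 (minus strand). The MCL1 sites are in the 3′ UTR in exon 4 of 4 at chr1:150576359-150576384 and chr1:150576153-150576178 (minus strand), and MCL1 also holds 1 ATGGAA in its coding sequence. In the longest annotated 3′ UTR, searched on the mRNA strand, TATGGAA occurred 2 times in BCL2, 1 time in BCL2L1 and 1 time in PMAIP1, and 0 times in the other 7 members. The same 7 bases were present in 16.1% of the 10174 tested genes with such a UTR. ATGGAA occurred 5 times in BCL2, 4 times in PMAIP1, 3 times in BCL2L11, 2 times in MCL1 and 1 time in BCL2L1, and was present in 46.2% of these genes. A match describes the sequence only, and its part in any difference given here was not tested.

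The libraries held between 61257859 and 69755291 counts on genes. NUF2, a subunit of the kinetochore NDC80 complex, had an FPKM (fragment counts relative to transcript length and to depth) of 14.8, 14.5 and 12.2 with control siRNA, against 1.53, 2.05 and 1.56 with NUF2 siRNA, in libraries 1, 2 and 3 of each group, so the labels matched the targeted gene. Mitochondrial genes took 6.70%, 5.73% and 5.46% of the counts in siCtrl and 7.06%, 6.85% and 6.54% in siNUF2 libraries. The ranges overlap, but the share was higher with NUF2 siRNA in 3 of 3 libraries of the same number, and its part in the results was not tested. KRT8, KRT18, VIM and the thyroid factor NKX2-1 were expressed (mean siCtrl FPKM 89.4, 159, 499 and 18.5). TG, the thyroglobulin that thyroid follicular cells use for hormone synthesis, did not exceed 0.0143 FPKM in any library. The thyroid factors PAX8 and FOXE1 and the epithelial markers EPCAM and CDH1 were low (mean siCtrl FPKM 0.575, 0.0178, 0.105 and 0). A mean FPKM of at least 1 was reached by 1 of 6 thyroid, 3 of 5 epithelial and 4 of 4 mesenchymal markers listed. Of the markers of other cell types, 0 of 4 for fibroblasts, 2 of 4 for blood (CD14 and HBB) and 1 of 3 for endothelium (CDH5) had a mean FPKM of at least 1. Their summed levels were 0.506 to 2.36, 1.99 to 15.1 and 1.06 to 2.38 in siCtrl and 0.691 to 3.62, 1.61 to 5.13 and 0.686 to 3.28 in siNUF2 libraries, and their part in the results was not tested.

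At baseline, MCL1 was by far the most abundant family transcript and BCL2 itself was among the least abundant. The mean siCtrl FPKM, a level per transcript length, was 95.6 ± 3.86 for MCL1 (SD, n = 3), higher than in 97.1% of the tested genes. PMAIP1 (36.1 ± 7.15), BCL2L1 (31.6 ± 6.46), BAK1 (27.7 ± 0.362) and BAX (26.6 ± 3.87) followed. Their siCtrl libraries overlapped from one gene to the next, so the full order of these 4 is not resolved, although PMAIP1 lay above BAK1 in all siCtrl libraries. BID (5.19 ± 0.628) and BCL2L11 (1.69 ± 0.206) were lower, each apart from its neighbours in all siCtrl libraries. BBC3 (0.796 ± 0.345), BIK (0.5002 ± 0.397) and BCL2 (0.459 ± 0.0640) overlapped again. These 3 had a mean below 1 FPKM over the 6 libraries, the minimum for the main test, so 7 members were tested.

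**Figure D1:**
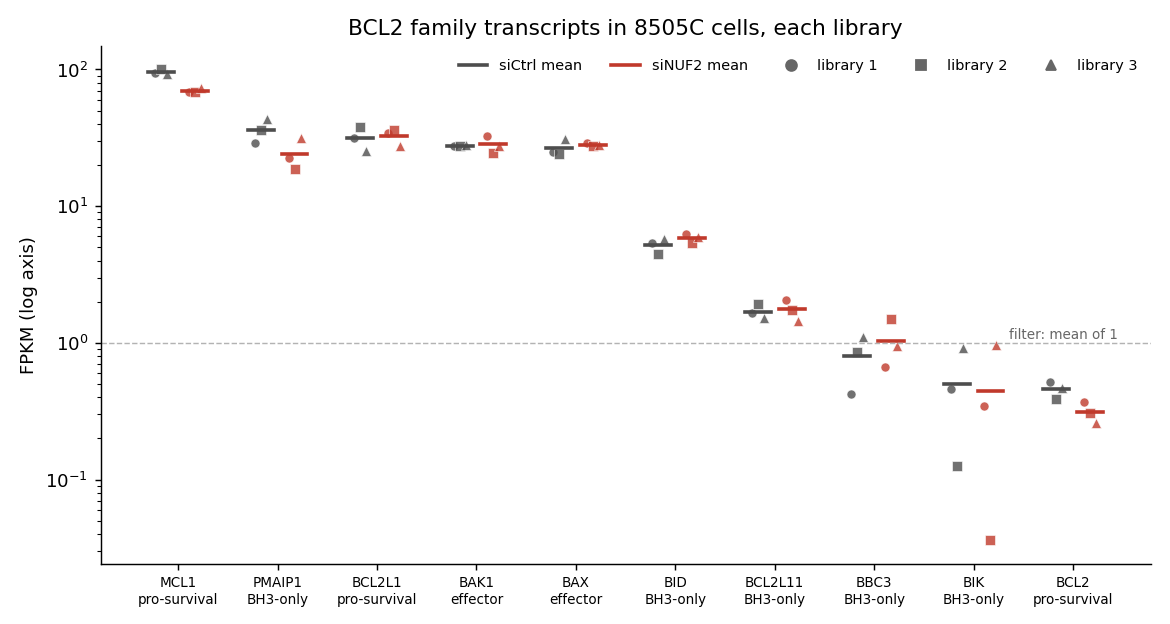
FPKM of the 10 BCL2 family members in each of the 6 libraries, on a log axis, ordered by the siCtrl mean. Symbols are libraries 1 to 3, horizontal bars are group means, and the dashed line is the minimum mean FPKM of 1 for the main test. MCL1 lies lower in all siNUF2 libraries, and BIK spreads widely in both groups.

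After NUF2 knockdown, 1 of the 7 tested members, MCL1, passed an adjusted p of 0.05 and was lower, and 0 were higher (quasi-likelihood test of edgeR, Benjamini-Hochberg adjustment). In the same test 3.99% of all 11725 genes passed, 2.46% lower and 1.53% higher. At an unadjusted p under 0.05 there were 2 of 7 members, MCL1 and PMAIP1, both lower, beside 18.2% of all genes (9.56% lower). DESeq2 called 1 of 7 members, beside 8.29% of all genes. With 7 members, these counts are not read as setting the family apart. The median log2 fold change of the tested members was 0.06, beside 0.01 for all genes tested. Libraries of the same number deviated together, and a fit with that number as a block called 2 of the 7 members, MCL1 and PMAIP1, against 14.5% of all genes (7.91% lower and 6.64% higher).

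MCL1, on chromosome 1 from 150574551 to 150579738, was the one pro-survival gene with a called change. Its FPKM in libraries 1, 2 and 3 was 93.7, 99.99 and 93.0 with control siRNA, and 68.9, 67.9 and 72.8 with NUF2 siRNA. Each siNUF2 library was below each siCtrl library, as for 13.4% of all tested genes, while 23.9% did not overlap in one direction or the other. The mean was 95.6 ± 3.86 in siCtrl and 69.9 ± 2.57 in siNUF2 cells (SD, n = 3), so that 73.1% of the control level remained. The log2 fold change was -0.43 with a standard error of 0.08 (95% interval -0.62 to -0.24, adjusted p = 0.0313 from edgeR), a 1.35-fold lower level and a difference larger than the spread between libraries. Between 22871 and 35349 counts per library stood behind it, the highest depth of the family. An exact permutation test of the FPKM gave p = 0.1 (two-sided), the smallest that 3 against 3 libraries can give. The size was stable, but the call was near its threshold. The adjusted p was 0.0981 with no filter, 0.0532 with the filterByExpr filter of edgeR, 0.0567 with the F-test on FPKM, 0.0688 with limma at a pseudocount of 0.1, and 0.0710 to 0.126 when any 1 of the 6 libraries was left out, whereas it was 0.00618 with the replicate block and 6.2e-04 with DESeq2.

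BCL2L1, which encodes BCL-XL, stayed in the same range. Its FPKM was 31.7, 38.1 and 25.1 in siCtrl and 34.0, 36.3 and 27.4 in siNUF2 libraries, with library 2 the highest and library 3 the lowest of both groups. The log2 fold change was 0.06 (95% interval -0.32 to 0.45, adjusted p = 0.894 from edgeR). That interval allows a level between 0.800 and 1.37 times the control. The block reduced the standard error from 0.17 to 0.07, and the adjusted p of edgeR was then 0.542.

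BCL2, the founding member of the family, was expressed at a low level, below the FPKM minimum of the main test. Its FPKM was 0.516, 0.390 and 0.470 in siCtrl and 0.369, 0.305 and 0.260 in siNUF2 libraries. Each siNUF2 library was below each siCtrl library, as for 13.4% of the tested genes, a set that leaves out BCL2. No such share was taken for genes below the minimum, so this is not read as a result about BCL2. The mean was 0.459 ± 0.0640 in siCtrl and 0.311 ± 0.0545 in siNUF2 cells (SD, n = 3), with 222 to 491 counts per library. Without a filter, over all 32985 genes, the log2 fold change was -0.53 (95% interval -1.07 to 0.01, adjusted p = 0.596 from edgeR), so BCL2 was not called. That fit called 0.57% of genes, 0.367% lower and 0.203% higher. In edgeR the adjusted p was 0.386 with the filterByExpr filter and 0.343 with the block and no filter. The smallest of the alternatives, 0.157, came from the block with the filterByExpr filter, a setting added after seeing the data.

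The levels of the 2 effectors were close in both groups. BAX FPKM was 24.8, 24.0 and 31.0 in siCtrl and 28.8, 27.4 and 28.2 in siNUF2 libraries. BAK1 FPKM was 27.5, 27.6 and 28.1 in siCtrl and 32.5, 24.6 and 27.7 in siNUF2 libraries. For both genes the groups overlapped. The log2 fold change was 0.10 for BAX (95% interval -0.17 to 0.37, adjusted p = 0.725) and 0.05 for BAK1 (95% interval -0.21 to 0.30, adjusted p = 0.878) in edgeR's test, and the upper ends of the intervals correspond to a 1.30-fold level for BAX and a 1.23-fold level for BAK1.

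PMAIP1, which encodes the MCL1 antagonist NOXA, was the only BH3-only gene with a called change, and only when the libraries were compared by number. Its FPKM was 29.1, 35.8 and 43.4 in siCtrl and 22.4, 18.6 and 31.8 in siNUF2 libraries. Library 3 was the highest of both groups, and the siNUF2 library 3 lay above the siCtrl library 1, so the groups overlapped. The mean was 36.1 ± 7.15 in siCtrl and 24.2 ± 6.79 in siNUF2 cells (SD, n = 3), or 67.1% of the control level. Without the block the log2 fold change of -0.56 had a standard error of 0.22 and an adjusted p of 0.228 in edgeR, and with the block that of -0.57 had a standard error of 0.11 and an adjusted p of 0.0165. Between libraries of the same number the log2 ratio was -0.37, -0.91 and -0.43, lower in 3 of 3. Left without siNUF2 library 3, the fit gave -0.80 with an adjusted p of 0.0794, and without siNUF2 library 2 or siCtrl library 3 it gave -0.40.

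**Figure D2:**
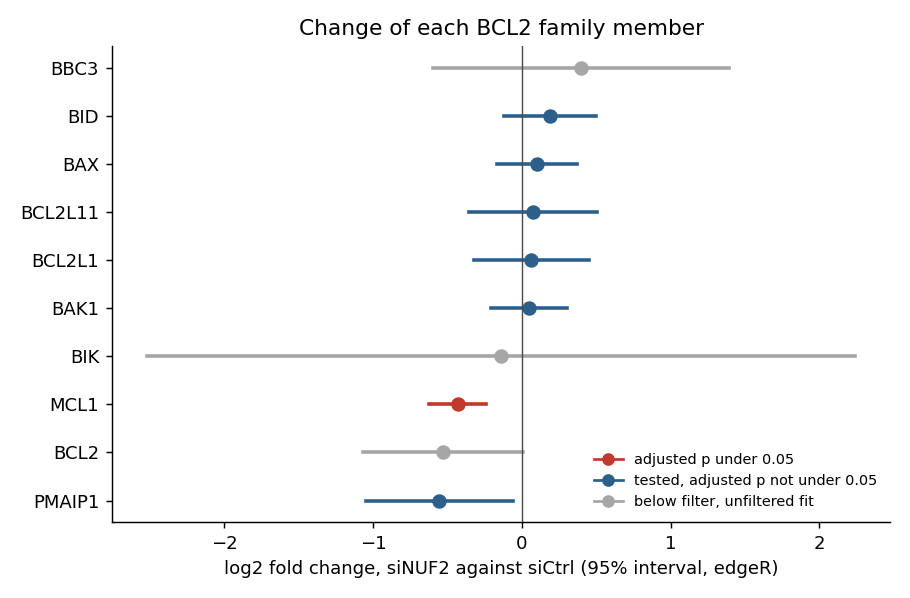
log2 fold change of each BCL2 family member, siNUF2 against siCtrl, with its 95% interval from edgeR. Red marks an adjusted p under 0.05, blue the other tested members and grey the members below the filter, taken from the fit without a filter. The intervals of MCL1 and PMAIP1 lie below 0, and that of BIK spans -2.52 to 2.24.

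BID, which links death receptors to mitochondria once caspase-8 cleaves it, had an FPKM of 5.37, 4.49 and 5.71 in siCtrl and 6.23, 5.34 and 5.95 in siNUF2 libraries. It was higher in 3 of 3 same-numbered comparisons, but the groups overlapped and the log2 fold change of 0.19 (95% interval -0.12 to 0.50, adjusted p = 0.536 from edgeR) did not pass. BCL2L11, which encodes BIM, had an FPKM of 1.65, 1.92 and 1.51 in siCtrl and 2.07, 1.75 and 1.44 in siNUF2 libraries. Its log2 fold change was 0.07 (95% interval -0.36 to 0.50, adjusted p = 0.888 from edgeR). In the file it overlaps MIR4435-2HG on the opposite strand (mean FPKM 2.33), and whether the counting used strand is not given in the sources used here.

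BBC3, which encodes PUMA, had an FPKM of 0.424, 0.857 and 1.11 in siCtrl and 0.666, 1.499 and 0.950 in siNUF2 libraries. Its log2 fold change without a filter was 0.40 (95% interval -0.60 to 1.39, adjusted p = 0.747 from edgeR), higher in 2 of 3 same-numbered comparisons. BIK had an FPKM of 0.459, 0.126 and 0.916 in siCtrl and 0.343, 0.0359 and 0.957 in siNUF2 libraries. Library 2 was the lowest and library 3 the highest in each group, and libraries 2 and 3 of each group were further apart than any 2 libraries of the same number. With 3 to 66 counts per library, the interval of BIK (-2.52 to 2.24 on the log2 scale) spans both directions widely.

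**Figure D3:**
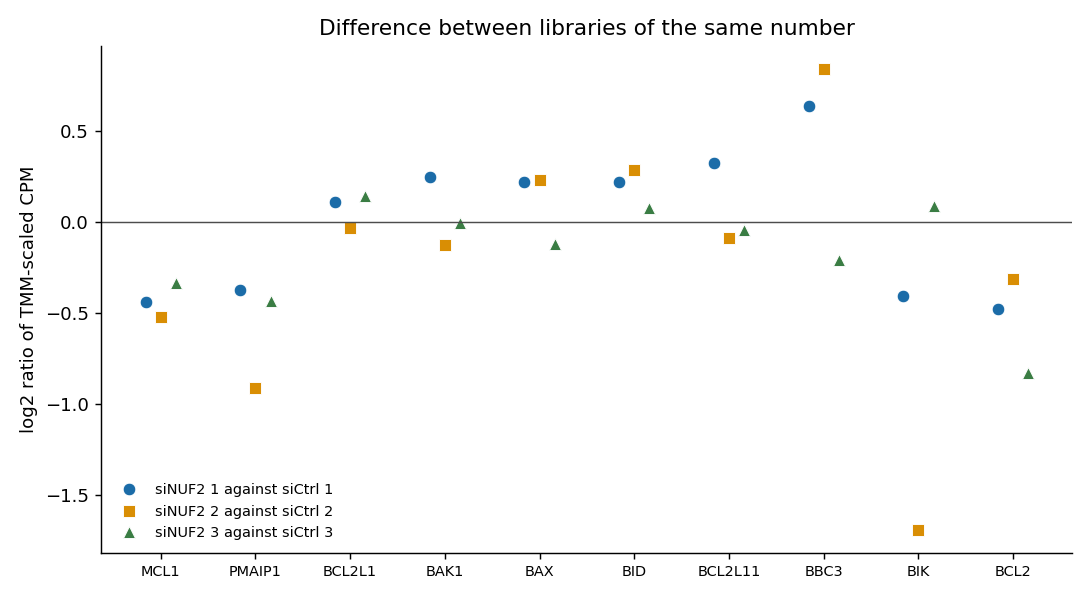
log2 ratio of TMM-scaled CPM between siNUF2 and siCtrl libraries of the same number, for each BCL2 family member in the order of the siCtrl level. MCL1, PMAIP1 and BCL2 are below 0 in all 3 comparisons, BID is above 0 in all 3, and the other members change sign.

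Added up by role, the pro-survival FPKM of MCL1, BCL2L1 and BCL2 was 126, 138 and 119 in siCtrl and 103, 105 and 100.5 in siNUF2 libraries, without overlap. The share of MCL1 in that sum was 74.4%, 72.2% and 78.4% in siCtrl and 66.7%, 65.0% and 72.4% in siNUF2 libraries, and overlapped. The effector sum was 52.3, 51.5 and 59.2 in siCtrl and 61.3, 52.1 and 55.9 in siNUF2 libraries, and overlapped. The BH3-only sum was 37.0, 43.2 and 52.6 in siCtrl and 31.7, 27.2 and 41.1 in siNUF2 libraries, and it overlapped as well. PMAIP1 made up 78.6% to 82.9% of the BH3-only sum in siCtrl and 68.3% to 77.4% in siNUF2 libraries. The FPKM ratio of MCL1 to its antagonist PMAIP1 overlapped between the groups, at 3.22, 2.79 and 2.14 in siCtrl and 3.08, 3.66 and 2.29 in siNUF2 libraries. These sums and ratios follow from the members' own values and were not tested.

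Of 67 further apoptosis genes in 8 lists, 66 had a row and 52 were tested. In edgeR's test 1 was higher and 1 lower (APAF1), which is 2 of 52 beside 3.99% of all genes. Their median log2 fold change was 0.01, equal to that of all genes tested at 2 decimals. With the replicate block 11 of the 52 were called, 6 higher and 5 lower, beside 14.5% of all genes.

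APAF1, the scaffold of the apoptosome that cytochrome c assembles downstream of BAX and BAK1, had an FPKM of 1.89, 2.19 and 2.31 in siCtrl and 0.990, 0.987 and 0.815 in siNUF2 libraries. Each siNUF2 library was below each siCtrl library, as for 13.4% of all tested genes, and 43.7% of the control level remained. The log2 fold change of -1.17 had a standard error of 0.17 and an adjusted p of 0.0103 in edgeR. The longest coding sequence of APAF1 holds TATGGAA 4 times and its 3′ UTR 0 times. Among the alternatives that tested APAF1, only the F-test on FPKM put its adjusted p above 0.05, at 0.0584.

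**Figure D4:**
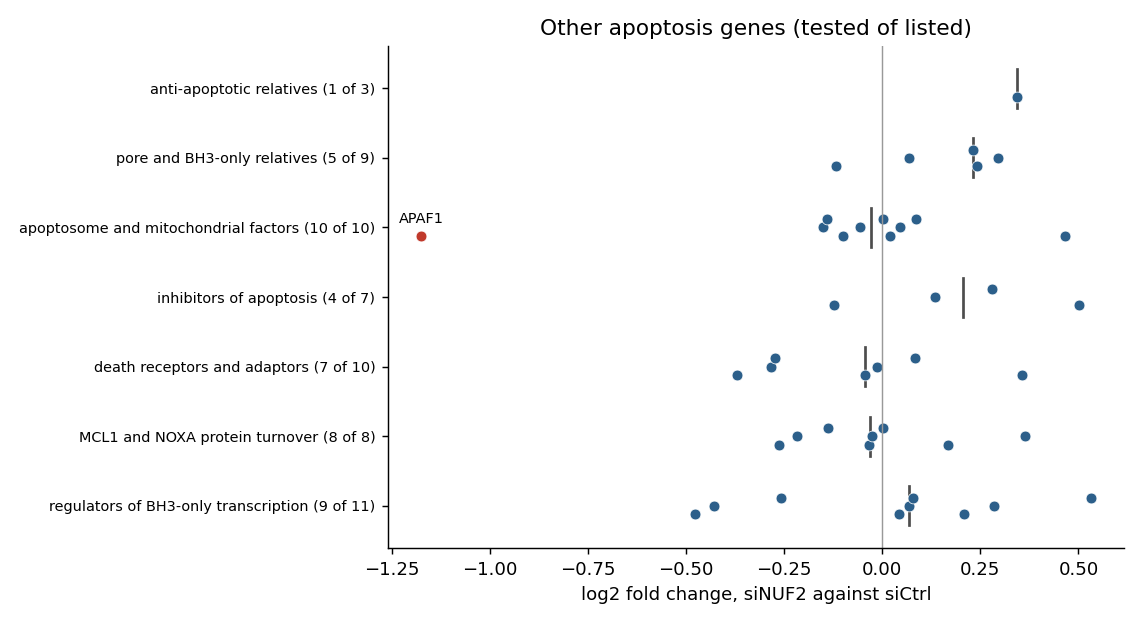
log2 fold change, siNUF2 against siCtrl, of the tested genes of 7 of the 8 lists of other apoptosis genes, with the number tested of the number listed. Each point is a gene, red marks an adjusted p under 0.05 and vertical bars are list medians. APAF1 at -1.17 stands outside the range of -0.48 to 0.53 of the other genes drawn.

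Of the closer relatives of the family, 1 of 3 anti-apoptotic genes and 5 of 9 pore and BH3-only genes were tested. They gave 0 calls in edgeR (3.99% of all genes) and 0 in DESeq2 (8.29% of all genes). At an unadjusted p under 0.05 there were 0, beside 18.2% of all genes. With so few genes tested, these counts are not read as setting the relatives apart. BCL2L2, which encodes the pro-survival BCL-W, had a mean FPKM of 10.4 ± 2.18 in siCtrl and 12.99 ± 2.38 in siNUF2 cells (SD, n = 3), and its log2 fold change, 0.34, had an adjusted p of 0.387 in edgeR. In the file it overlaps BCL2L2-PABPN1 on the same strand, and reads shared by both are uncertain. BCL2A1 was below the filter, with 1.42 ± 0.772 in siCtrl and 0.519 ± 0.339 in siNUF2 cells and overlapping groups, and BCL2L10 was listed at 0 in all siCtrl libraries. Of the pore and BH3-only relatives, BOK (0.24), BCL2L13 (0.29), MOAP1 (0.23), BCL2L12 (0.07) and BAD (-0.12) were tested, with these log2 fold changes and adjusted p from 0.329 to 0.809 in edgeR. BMF, HRK, BCL2L14 and BCL2L15 had siCtrl means of 0.589, 0.435, 0.00488 and 0.0311 FPKM and were not tested.

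Among the inhibitors of apoptosis, 0 of 4 tested genes passed in edgeR. At an unadjusted p under 0.05 there was 1, beside 18.2% of all genes, and DESeq2 called 1, beside 8.29%. The smallest p belonged to BIRC5, which encodes survivin and has a second role in mitosis, at a mean FPKM of 22.9 ± 2.82 in siCtrl and 31.9 ± 1.503 in siNUF2 cells (SD, n = 3). Its log2 fold change was 0.50, with an adjusted p of 0.0548 from edgeR and 0.00550 with the block. Among death receptors and adaptors, 0 of 7 passed in edgeR, with 2 at an unadjusted p under 0.05 (18.2% of all genes) and 0 in DESeq2 (8.29% of all genes). The smallest p belonged to TNFRSF10B, a TRAIL receptor, at 19.3 ± 2.58 and 14.7 ± 0.370 FPKM (SD, n = 3), and the log2 fold change, -0.37, had an adjusted p of 0.141 in edgeR (0.0389 with the block). TNFRSF10B overlaps RHOBTB2 on the opposite strand in the file.

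Of the genes that act on MCL1 or NOXA protein turnover, 0 of 8 passed in edgeR, with 2 at an unadjusted p under 0.05 and 1 in DESeq2, beside the same 18.2% and 8.29% of all genes. The smallest p belonged to SKP2, an F-box protein of the SCF ubiquitin ligase, with 14.9 ± 0.716 and 18.9 ± 0.831 FPKM (SD, n = 3) and a log2 fold change of 0.36, with an adjusted p of 0.0786 in edgeR (0.0142 with the block). Of the transcription factors and regulators that act on BH3-only genes, 0 of 9 tested genes passed in edgeR, with 1 at an unadjusted p under 0.05 (18.2% of all genes) and 1 in DESeq2 (8.29% of all genes). The smallest p belonged to MYC, at 10.8 ± 0.293 and 15.5 ± 3.46 FPKM (SD, n = 3), and the log2 fold change, 0.53, had an adjusted p of 0.115 in edgeR (0.0321 with the block).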

How the data were processed

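RNA of 3 siCtrl and 3 siNUF2 libraries of 8505C cells was paired-end sequenced after poly(A) selection. Per the labels and the methods, the authors used fastp, HISAT2 on GRCh38 and StringTie; versions, annotation and strand setting are not given in the sources used here. The authors deposited FPKM and whole-number counts per gene. The tool that made the counts is not given either. The members and lists were chosen with earlier results of these data known.

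A gene was tested where its FPKM averaged 1 or more across the 6 libraries. The test used the deposited counts in edgeR 4.0.16 (TMM, quasi-likelihood test, Benjamini-Hochberg adjustment over 11725 genes, R 4.3.3). A gene was called at an adjusted p under 0.05. Members below this minimum were taken from a fit without a filter over 32985 genes. The standard error is the log2 fold change over the root of F. Replicate libraries differed by a chi-square per degree of freedom of 90.1 to 132, far above sampling noise. Nothing says that they came from separate cultures, so p-values measure the spread between these libraries, which may be technical. Fewer expressing cells and less RNA per cell cannot be told apart in bulk RNA.

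To check the pairing, each library's deviation from its group mean was correlated between groups across the tested genes. The correlation was 0.419, 0.429 and 0.540 for libraries of the same number and -0.316 to -0.126 for others, so the numbers pair the libraries, and a block was used as an alternative. What a number shares is not given in the sources used here.

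The 3′ UTRs came from GENCODE release 44 (longest per gene, at least 50 bases), whose build is that of the file. Alternatives were limma 3.58.1 at pseudocounts of 1 and 0.1, an F-test of nested linear models, DESeq2 1.42.0, its size factors in edgeR, upper quartile scaling, other filters and leaving out each library. The study names such an F-test too, but screened genes by P together with a cut on fold change. Here the F-test was run on log2(FPKM + 1) with adjusted p and no such cut, so its calls are not those of the study. The block with the filterByExpr filter was added after seeing the data. On simulated counts with 200 of 11725 genes changed, edgeR recovered 172 (86.0%) with 6 false calls. Whether this share holds for differences as small as those of the members, or for libraries paired by number, was not tested. Genes named were NUF2, all members, the members' relatives, and from each other list the called genes (at most 4) or else the gene with the smallest p. All 12 columns of values were used. Some genes of the lists and markers are counted but not reported here by name.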

Additional observations from a re-analysis of the deposited data

How the results depend on the processing

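Among the 10 members, BCL2, MCL1, BAX, BBC3, PMAIP1 and BID kept their direction in every alternative. Of all 11725 genes, 468 were called in edgeR, 972 with DESeq2, 348 with limma at a pseudocount of 0.1 and 78 with the F-test. The number was 188 of 32985 with no filter, 309 of 19276 with filterByExpr and 345 of 6542 with a minimum mean FPKM of 5. It was 1705 of 11725 with the replicate block, 1310 of 19276 with the block and filterByExpr, and 124 to 251 of 11725 when a library was left out. An unadjusted p under 0.05 was reached by 2046 genes with that limma setting, 1893 with the F-test and 2818 with no filter. It was reached by 2548 with filterByExpr, 1304 with the minimum of 5, and 1591 to 2086 when a library was left out. Members called numbered 0 of 7 with limma at a pseudocount of 0.1 or the F-test (2 and 1 at an unadjusted p under 0.05). They numbered 0 of 10 with no filter or filterByExpr (2 and 2 at an unadjusted p under 0.05). When a library was left out in edgeR, 0 of 7 were called (1 or 2 at an unadjusted p under 0.05). With the replicate block 2 members were called under either filter. Beside the numbers for all genes, these counts are not read as setting the members apart. Other apoptosis genes called, 2 of 52 in edgeR, numbered 7 of 52 with DESeq2 and 0 of 52 with the F-test (11 at an unadjusted p under 0.05). They numbered 0 of 35 with a minimum mean FPKM of 5 (10 at an unadjusted p under 0.05), which removes APAF1. The block gave 11 of 52, and the block with filterByExpr 7 of 62. Leaving out a library gave 2 to 4 of 52, with 4 called without siNUF2 replicate 2. These counts are not read as setting the other apoptosis genes apart either.

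MCL1 had a log2 fold change of -0.45 with limma at a pseudocount of 0.1, -0.45 with the F-test, -0.43 with no filter and -0.43 with filterByExpr, where its call was lost, and of -0.46 to -0.40 without 1 library. PMAIP1 was called at -0.57 with the replicate block and at -0.57 with the block and filterByExpr. The block changed no other call among the members. Leaving out a library turned the direction of members that were not called. The range was -0.076 to 0.22 for BCL2L1, -0.057 to 0.13 for BAK1, -0.053 to 0.20 for BCL2L11 and -1.34 to 0.62 for BIK, which has the fewest counts. The cause of these changes was not tested.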

Other observations

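Beyond the genes named so far, 4 other apoptosis genes, chosen after their values were seen, passed edgeR's test with the replicate block but not the main test. CYCS, which encodes cytochrome c, had 34.1, 29.9 and 36.2 FPKM in siCtrl and 52.6, 35.5 and 48.6 in siNUF2 libraries, with an overlap and a log2 fold change of 0.45 with the block (adjusted p = 0.0117 from edgeR, 0.153 without it). DFFA, the inhibitor of the caspase-activated nuclease, was higher with the block, and the death receptor TNFRSF1A and the MCL1 deubiquitinase USP9X were lower (adjusted p = 0.0194, 0.0451 and 0.0435 from edgeR). DFFA overlaps PEX14 on the opposite strand in the file.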
